A study of Mus musculus with 8 samples.

Results

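The cytosolic ribosomal protein genes were examined in auditory nerves of mice at postnatal day 21. Members were the genes of the deposited table whose symbol begins with Rpl or Rps and a digit, or is Rplp0, Rplp1, Rplp2 or Rpsa. The 10 Rps6k kinase symbols and 9 symbols with a -ps suffix were left out of the 106 that matched, which left 87 of 15035 genes, 51 of the large and 36 of the small subunit by their prefix. The rule uses names only and no measured value. The table held 4 wild-type libraries (numbered 1 to 4) and 4 libraries from mice labelled as Mef2c heterozygotes (numbered 5 to 8). No treatment or strain is named for either group in the sources used here, and neither is the design of the Mef2c allele or any Cre driver. The nerves of both cochleas of each mouse were pooled into 1 library, so a library stands for 1 mouse. Values are normalized counts, which behave for the most part as read counts per gene scaled by 1 factor for each library. They come from bulk tissue, in which fewer cells of a type and less RNA per cell cannot be told apart.

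Each ribosomal subunit is built from ribosomal RNA and a fixed set of proteins, most of them present once per particle, so cells make these proteins in matched amounts. Their messenger RNAs are short, abundant and stable, and most begin with a pyrimidine-rich tract at the very 5′ end, the TOP element. Through that tract the mTORC1 kinase pathway and the protein LARP1 set how actively the whole family is translated. The auditory nerve holds spiral ganglion neurons, whose long axons need sustained protein synthesis, and the glia that myelinate them.

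The start-site sequences show what the family shares besides its name. RefSeq windows (build GRCm38.p6) from 250 bases before to 50 bases after the annotated start were found for 66 of the 87 members. A run of at least 8 bases that are all C or T, on the gene's own strand and between 30 bases before and 50 bases after the start, was present in 48 of these 66 windows, or 72.7%. The same run was present in 28.9% of all 27025 windows of that length. Windows of 30 bases around the run are printed for some members that are named below and hold one, 5′ to 3′, with the run in capitals. Other members named below have a window without such a run, among them Rpl22, Rps13, Rplp0, Rps3 and Rps3a1.
Rpl38 (chr11:114668568-114668597, plus strand): ggaagcctcgTTCTTTCCCCgttctcttcg
Rpl41 (chr10:128549119-128549148, minus strand): cgccattaaatagcagtaggCCTCCCTCTC
Rpl36a (chrX:134585672-134585701, plus strand): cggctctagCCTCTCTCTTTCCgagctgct
Rplp2 (chr7:141447636-141447665, plus strand): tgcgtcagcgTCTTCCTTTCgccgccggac
Rpl11 (chr4:136053358-136053387, minus strand): ccggaagTCTCCCTCTCTCTTCCTgttctc
Rps24 (chr14:24490698-24490727, plus strand): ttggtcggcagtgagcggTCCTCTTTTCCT
Rps15a (chr7:118116143-118116172, minus strand): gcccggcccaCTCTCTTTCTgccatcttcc
Rps6 (chr4:86857349-86857378, minus strand): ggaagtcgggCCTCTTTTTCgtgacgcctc
Rps27l (chr9:66946063-66946092, plus strand): actcctctccaCTCCTCCCCgccgcctcta
Rps6 and Rps27l, the 2 members with the highest fold changes in the comparison below, hold such a run, and so does Rpl38, the member with the lowest. A run that reaches the last base of a line may go on past the window that was searched. The runs of Rpl41 and Rps24 begin at positions 41 and 39 counted from the annotated start. Whether any of these runs is a TOP element was not tested.

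Other promoter letters were searched in the whole window of 300 bases. CCGGAAG, the core bound by ETS-family factors, was found on either strand in 24 of 66 members (36.4%) and in 9.12% of all windows. AAGATGGC, the core of the YY1 motif, was found on either strand in 5 of 66 (7.58%) and in 2.88% of all windows. TATAAA was found on the gene's strand in 7 of 66 (10.6%) and in 8.88% of all windows. Matches of CCGGAAG and AAGATGGC can share letters where one runs into the other. A pair of whole windows is printed, with CCGGAAG matches and pyrimidine runs near the start in capitals. Rpl38 is shown as the member with the lowest fold change and Rps6 as the one member above 0.
Rpl38 (chr11:114668330-114668629, plus strand): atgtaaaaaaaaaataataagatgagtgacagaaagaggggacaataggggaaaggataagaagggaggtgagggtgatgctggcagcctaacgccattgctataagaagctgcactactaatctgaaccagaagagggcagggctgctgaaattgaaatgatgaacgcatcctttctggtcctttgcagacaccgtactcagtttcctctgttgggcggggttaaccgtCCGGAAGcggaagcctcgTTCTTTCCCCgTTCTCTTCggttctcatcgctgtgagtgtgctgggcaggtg
Rps6 (chr4:86857318-86857617, minus strand): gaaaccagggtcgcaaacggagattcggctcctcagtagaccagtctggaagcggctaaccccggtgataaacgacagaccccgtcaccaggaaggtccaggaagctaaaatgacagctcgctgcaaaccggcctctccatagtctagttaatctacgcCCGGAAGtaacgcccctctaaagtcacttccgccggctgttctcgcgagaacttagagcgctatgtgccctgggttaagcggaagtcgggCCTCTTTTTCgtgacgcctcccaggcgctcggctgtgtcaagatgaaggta
Both hold an ETS core and a pyrimidine run at the start. The members themselves are scattered over 19 chromosomes, with 14 on chromosome 7 and 4 on the X chromosome (Rpl10, Rpl36a, Rpl39 and Rps4x).

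The libraries as wholes were described first. Estimated depth ran from 13363360 to 21507195 reads, with wild-type libraries 1 and 4 the shallowest, at 13363360 and 14194202 reads. Mef2c itself had 462 ± 50.4 normalized counts in wild type, against 668.3 ± 66.8 in the libraries labelled heterozygote (n = 4 each, SD). This goes against the label, and a value per gene does not show which part of the gene the reads came from, so every direction below is between libraries as labelled. Xist was at 12 in wild-type library 1 and 7.6 in library 5, and at 5175 to 8615 in the other 6, while the labels name no sex. Neuronal markers (14 of 14 in the table) summed to 186572 to 254517 normalized counts in wild type, against 204748 to 240679 in the libraries labelled heterozygote, and the 10 Schwann cell markers were all present.

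Ribosomal protein transcripts were abundant in all libraries. All 87 members had at least 10 normalized counts in every library, with 53.5 the lowest single value, so none was lost to the filter on low values. Levels between genes were compared per kilobase of transcript, using GENCODE M21 lengths, which were found for 86 members. The highest levels per kilobase in wild type were those of Rps15 (16189 normalized counts per kilobase), Rpl41 (14546), Rplp1 (13417) and Rpl8 (10549). Rps15 sits in the head of the small subunit, and Rpl41 is the smallest protein of the ribosome. The median member had 2611 and the lowest, Rps6, had 242. Reads shared with near-identical copies make this 67.0-fold range uncertain, as described below. The rank correlation of levels between genotypes was 0.987 across the 86 genes. Genes of 1 library share its depth, so this is a description.

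The family as a whole took a larger and more variable share of the wild-type libraries. The 87 genes held 1.84%, 1.32%, 1.04% and 1.54% of all normalized counts in wild-type libraries 1 to 4, and 1.11%, 1.05%, 1.19% and 0.943% in libraries 5 to 8, labelled heterozygote. The group means were 1.44% ± 0.337 and 1.07% ± 0.102 (n = 4 each, SD). The groups overlapped, because wild-type library 3 lay below 3 of the 4 libraries labelled heterozygote. Both subunits followed the same order of libraries at the top and bottom, with the large subunit at 1.08% in wild-type library 1 and 0.559% in library 8, and the small subunit at 0.763% and 0.384%. The ratio of large to small subunit counts was 1.43 ± 0.0374 in wild type, against 1.47 ± 0.0221 in the libraries labelled heterozygote (n = 4 each, SD), and the groups overlapped.

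**Figure D1:**
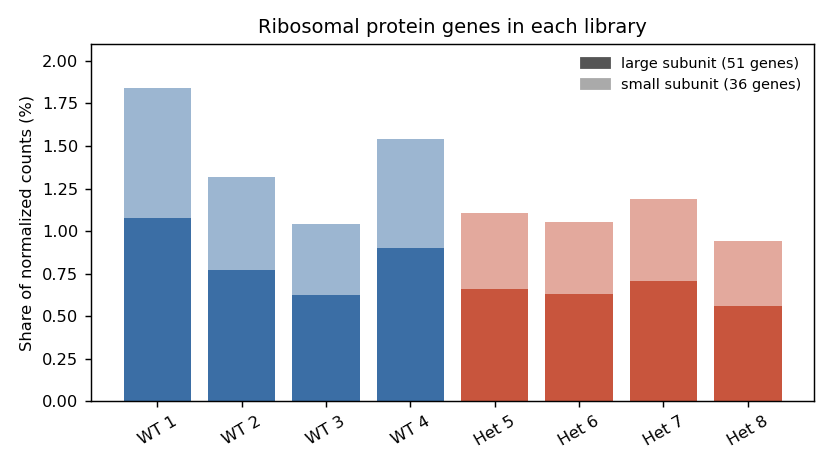
Share of all normalized counts (percent, y axis) held by the 87 ribosomal protein genes in each of the 8 libraries (x axis), with large subunit genes in the dark part of each bar and small subunit genes in the pale part. Wild-type libraries 1, 4 and 2 stand highest, and wild-type library 3, at 1.04%, is level with the libraries labelled heterozygote.

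The members moved together from library to library. In 75 of the 87 genes the highest value was in wild-type library 1, and in 68 the lowest was in library 8. The median deviation of the members from their own mean over all libraries, on the log2(value + 1) scale, was 0.58, 0.09, -0.21 and 0.33 in wild-type libraries 1 to 4. It was -0.13, -0.23, -0.06 and -0.41 in libraries 5 to 8. Wild-type library 1 exceeded every library labelled heterozygote in 83 members, library 4 in 78 and library 2 in 64, but wild-type library 3 in only 8.

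**Figure D2:**
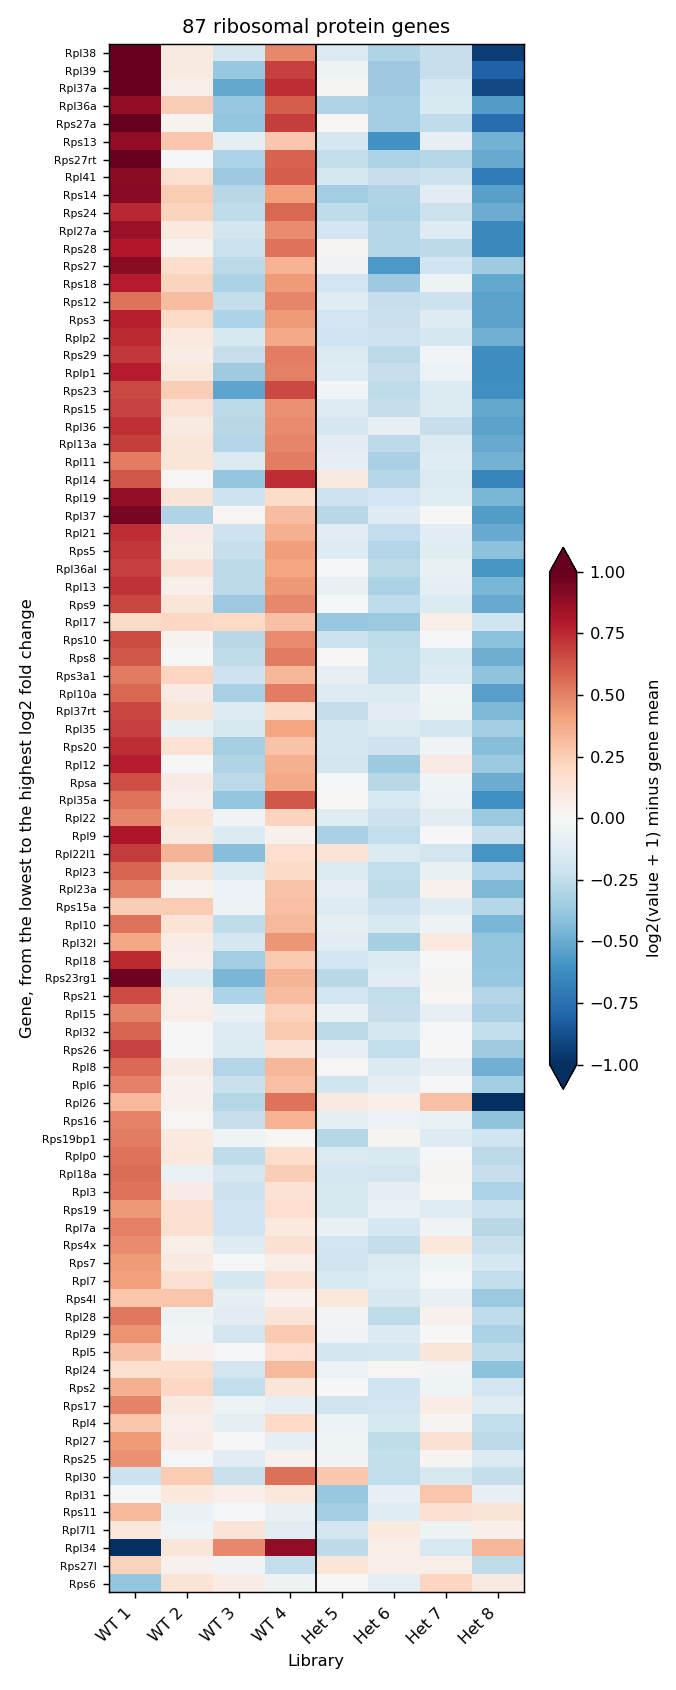
Deviation of each of the 87 genes (rows, ordered by log2 fold change) from its mean in each library (columns), on the log2(value + 1) scale, with the colour scale limited to -1 to 1. Wild-type libraries 1 and 4 are high and library 8 low in most rows, and wild-type library 3 resembles the libraries labelled heterozygote. At the end with the highest fold changes, the rows of Rpl34 and Rps6 do not follow the pattern. Rps27l there is highest in wild-type library 1 and lowest in library 8, but low in wild-type library 4.

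Genotypes were then compared gene by gene, to ask which transcripts differ between mice labelled heterozygous for Mef2c and wild type. The test was limma-trend on log2(value + 1) over all 14870 tested genes. The fold change was below 0 in 86 of 87 members, against 47.7% of all tested genes, and the members' median on the log2 scale was -0.41 (large subunit -0.39, small subunit -0.42), beside 0.02 over all tested genes. None of the 87 passed a Benjamini-Hochberg adjusted p of 0.05. In all tested genes 0.074% passed it as lower and 0.00672% as higher. The smallest limma-trend adjusted p of a member was 0.222, that of Rps15a. At an unadjusted p under 0.05, 51 members were lower, 28 of the large and 23 of the small subunit, against 7.34% of all tested genes. No member was higher at that level, against 6.72%. Only 5 members, Rpl17, Rpl22, Rplp2, Rps15a and Rps7, had no overlap between genotypes with the heterozygote-labelled side lower, against 3.86% of all tested genes. The authors' deposited table gives an FDR under 0.05 for 3 members, Rps14, Rps15a and Rps24, all lower, against 0.938% of genes called lower there.

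Rplp0, Rplp1 and Rplp2 form the flexible P-stalk of the large subunit, which recruits the translation factors that split GTP. Rplp2 had 3109, 1978, 1653 and 2400 normalized counts in wild-type libraries 1 to 4, and 1613, 1601, 1635 and 1325 in libraries 5 to 8. The genotypes did not overlap on this row, but wild-type library 3 lay just above library 7. Rplp2 held 38.3% of its sum with Rplp2-ps1, a row named as its pseudogene and left out by the rule. That sum did overlap, at 4053 in wild-type library 3 and 4427, 4262 and 4217 in libraries 5 to 7. The log2 fold change of Rplp2 was -0.53 ± 0.17 (SE), at a limma-trend adjusted p of 0.266. Rplp1 had 9239, 5749, 4188 and 7605 in wild type, against 4900, 4565, 5130 and 3488 in the libraries labelled heterozygote, where wild-type library 3 fell inside the other group. Its log2 fold change was -0.52 (limma-trend adjusted p 0.316). Rplp0, the stalk's base, had the smaller log2 fold change of -0.29 (limma-trend adjusted p 0.382). All 3 were highest in wild-type library 1.

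Rpl5 and Rpl11 join the 5S ribosomal RNA in a particle that is also known for binding Mdm2 when ribosome assembly fails. Rpl11 had 2592, 1979, 1645 and 2586 normalized counts in wild type, against 1710, 1450, 1667 and 1312 in the libraries labelled heterozygote. Wild-type library 3 lay below libraries 5 and 7, and the other 3 wild-type libraries lay above all 4. The log2 fold change was -0.50 (unadjusted limma-trend p 0.00613, adjusted p 0.259). Rpl5, with the longer transcript of 2045 bases, had a log2 fold change of -0.24 (limma-trend adjusted p 0.338).

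Rpl38, a surface protein known for its role in translating Hox messages during skeletal patterning, had 1045, 478.7, 399.7 and 629.3 normalized counts in wild-type libraries 1 to 4. In libraries 5 to 8 it had 407.3, 364.2, 383.6 and 234.4. Wild-type library 3 lay inside the other group, and wild-type library 1 was far above all others. The log2 fold change, -0.81 ± 0.27 (SE), was the lowest of the family (limma-trend adjusted p 0.270). Rpl39, which lines the peptide exit tunnel, had a log2 fold change of -0.73 (limma-trend adjusted p 0.286), and Rpl37a had -0.70 (0.337). Rpl41 had 11215, 6682, 4660 and 9095 normalized counts in wild type, against 5332, 5094, 5159 and 3694 in the libraries labelled heterozygote. Its log2 fold change was -0.65 (limma-trend adjusted p 0.278), with wild-type library 3 again inside the other group.

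Other large subunit proteins lay closer to 0. Rpl3, which reaches the peptidyl transferase centre, had 4246 ± 931 normalized counts in wild type, against 3450 ± 317 in the libraries labelled heterozygote (n = 4 each, SD), and the log2 fold change was -0.28 (limma-trend adjusted p 0.384). Rpl4, another protein of the exit tunnel, had 9756 ± 1116 and 8373 ± 695 (n = 4 each, SD), and the log2 fold change was -0.22 (limma-trend adjusted p 0.379). Rpl10, which joins late and is needed for the subunits to unite, had a log2 fold change of -0.37 (limma-trend adjusted p 0.326). In each of these the ranges of the genotypes overlapped.

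In the small subunit, Rps14, a protein of the platform, had 9927, 6315, 4364 and 7027 normalized counts in wild type, against 4156, 4285, 4909 and 3631 in the libraries labelled heterozygote. Only wild-type library 3 lay inside the other group, below library 7. The log2 fold change was -0.65 (limma-trend adjusted p 0.259), and the FDR in the authors' deposited table was 0.0381. Rps24, one of the genes mutated in Diamond-Blackfan anaemia, had 5594, 3871, 2781 and 4939 in wild type, against 2781, 2666, 2857 and 2351 in the libraries labelled heterozygote. Wild-type library 3 and library 5 differed by less than 1 normalized count. The log2 fold change was -0.64 (limma-trend adjusted p 0.226), with an FDR of 0.0209 in the authors' deposited table.

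Rps15a had 1697, 1702, 1385 and 1759 normalized counts in wild type, against 1312, 1233, 1317 and 1174 in the libraries labelled heterozygote. The genotypes did not overlap, and unlike most members it was not highest in wild-type library 1. Its log2 fold change was -0.37 (limma-trend adjusted p 0.222), with an FDR of 0.0478 in the authors' deposited table. Rpl17 of the large subunit was also even across wild type, with 588.0, 596.7, 593.1 and 632.7 against 397.3, 398.9, 537.0 and 448.8, a log2 fold change of -0.45 (limma-trend adjusted p 0.238). Taken alone, neither row was highest in wild-type library 1, where 75 members were. Summed with a row named as its pseudogene, each was highest there. The sum of Rpl17 and Rpl17-ps10 overlapped between genotypes, with library 7 at 2953 and wild-type libraries 2 and 3 at 2913 and 2848. The sums of Rps15a with Rps15a-ps4 or with Rps15a-ps6 did not overlap.

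The other members without overlap were Rpl22 and Rps7. Rpl22, a large subunit protein that is not needed for the core of translation and is known from T cell development, had 4111, 3221, 2851 and 3423 normalized counts in wild-type libraries 1 to 4. In libraries 5 to 8 it had 2687, 2526, 2722 and 2259, and wild-type library 3 was the nearest to them. The genotypes differed by -0.41 on the log2 scale (unadjusted limma-trend p 0.00435, adjusted p 0.236). Rps7, another protein able to bind Mdm2, had 1019, 809.1, 748.9 and 791.1 in wild type, against 663.7, 689.2, 738.8 and 675.1, with wild-type library 3 and library 7 close together. The log2 fold change was -0.27 (limma-trend adjusted p 0.331).

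Some members with lower fold changes did overlap. Rps13, a small subunit protein that helps join the subunits, had 817.2, 532.1, 415.3 and 531.6 in wild type, against 393.1, 289.9, 416.0 and 317.1. Library 7 and wild-type library 3 were nearly level, and the other 3 wild-type libraries lay above all of libraries 5 to 8. The difference was -0.67 on the log2 scale (limma-trend adjusted p 0.259). Rpl36a, one of the X-linked members, had 707.3, 453.4, 294.2 and 581.0, against 309.6, 302.3, 343.0 and 258.8. Wild-type library 3 lay inside the other group, and the log2 fold change was -0.68 (limma-trend adjusted p 0.278).

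Rpsa, a small subunit protein also known as the laminin receptor, had a log2 fold change of -0.42 (limma-trend adjusted p 0.330). Rps27a, made as a fusion with ubiquitin, had -0.67 (0.310), and Rps19, another Diamond-Blackfan gene, had -0.28 (0.343). Rps19bp1, which the symbol rule takes in although it encodes a binding partner of Rps19 and no ribosomal protein, had 298.2 ± 55.7 normalized counts in wild type, against 241.5 ± 22.8 in the libraries labelled heterozygote (n = 4 each, SD). Its log2 fold change was -0.29 (limma-trend adjusted p 0.437). Fau and Rack1, which the symbol rule does not take in, were also lower on average. Fau, the fusion that yields a small subunit protein, had a log2 fold change of -0.47 (limma-trend adjusted p 0.278). Rack1, a signalling scaffold on the small subunit, had -0.32 (limma-trend adjusted p 0.330).

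The members with fold changes nearest to or above 0 included 2, Rps6 and Rpl34, with far fewer counts than a row named as their pseudogene. Rps6, the small subunit protein phosphorylated by the S6 kinases, had 167.2, 240.2, 230.2 and 211.1 normalized counts in wild type, against 221.3, 206.1, 254.2 and 232.8 in the libraries labelled heterozygote. It was the one member with a fold change above 0, at 0.12 on the log2 scale (limma-trend adjusted p 0.772). The row Rps6-ps4, named as a pseudogene of it and left out by the rule, had 9569 ± 1906 and 7184 ± 801 (n = 4 each, SD), so that Rps6 held 2.56% of the counts on both rows. Rps6-ps4 had a log2 fold change of -0.40 (unadjusted limma-trend p 0.0155, adjusted p 0.279), and the sum of both rows differed by -0.39 on the log2 scale.

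Rpl34 also had fewer counts than its pseudogene row. It had 53.5, 163.2, 210.7 and 279.4 normalized counts in wild type, and was lowest in the library where most members were highest. Rpl34 and Rpl34-ps1 together had 2088, 1527, 1123 and 1617 in wild type, against 1092, 1074, 1307 and 959.2 in the libraries labelled heterozygote, and Rpl34 held 12.2% of that. On the sum, the difference was -0.49 on the log2 scale, against -0.01 for Rpl34 alone. Rpl17 held 18.6% of its sum with Rpl17-ps10, where the difference was -0.26. All 10 rows named as pseudogenes of a member were lower on average, with a median log2 fold change of -0.36, none past the adjusted threshold. After the length correction described below, the 8 rows with a length had a median of 0.0047, with 4 lower and 4 higher. How reads that match several copies were assigned is not given in the sources used here, so values of single members with such copies are uncertain.

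Pairs of a canonical gene and its paralog were compared within libraries, where 1 scaling factor per library has next to no effect. RefSeq lists one of these paralogs, Rps4l, as a transcribed pseudogene, and the symbol rule takes it in as a member. The 5 pairs in the table were tested by a two-sided exact permutation test of the log2 ratio of paralog to canonical gene, adjusted over the 5. Rps27l, an S27-like protein induced by p53, had 402.3, 353.3, 333.7 and 291.1 normalized counts in wild type, against 373.7, 357.2, 358.1 and 287.8 in the libraries labelled heterozygote. Its canonical partner Rps27 had 677.5, 407.8, 301.5 and 459.7 and then 352.9, 242.3, 314.4 and 282.7. The log2 ratio was -0.37 ± 0.42 in wild type, against 0.21 ± 0.24 in the libraries labelled heterozygote (n = 4 each, SD, exact permutation p 0.0857, adjusted 0.286), and the difference of 0.58 did not pass the threshold. The ratio of Rpl36al to Rpl36a differed by 0.20 (exact permutation p 0.114, adjusted 0.286) and that of Rpl7l1, a nucleolar assembly factor, to Rpl7 by 0.23 (adjusted exact permutation p 0.333). The ratios of Rpl22l1 to Rpl22 and of Rps4l to Rps4x each differed by 0.02 (adjusted exact permutation p 0.886 for both). After the length correction described below, the ratio of Rpl22l1 to Rpl22 differed by 0.25 (adjusted exact permutation p 0.286), that of Rps4l to Rps4x by 0.04 (0.743) and that of Rpl7l1 to Rpl7 by 0.12 (0.286). The smallest p that 4 libraries against 4 can give is 0.0286.

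Transcript length moved with the family's levels. The median member transcript had 779 bases, against 2918 in the other tested genes, and 62 of 86 were under 1000 bases. In the shortest of 10 equal bins of genes by length (102 to 1155 bases), 68 of 69 members were lower, with a median log2 fold change of -0.42. The 1384 other genes of that bin had a median of -0.24, and 78.3% of them were lower. At an unadjusted p under 0.05, 42 of the 69 members and 21.2% of the other genes in that bin were lower. In the longest bin the median of the other genes was 0.23. Among the 86 members, the rank correlation of fold change with length was 0.29, a description over genes that share libraries.

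**Figure D3:**
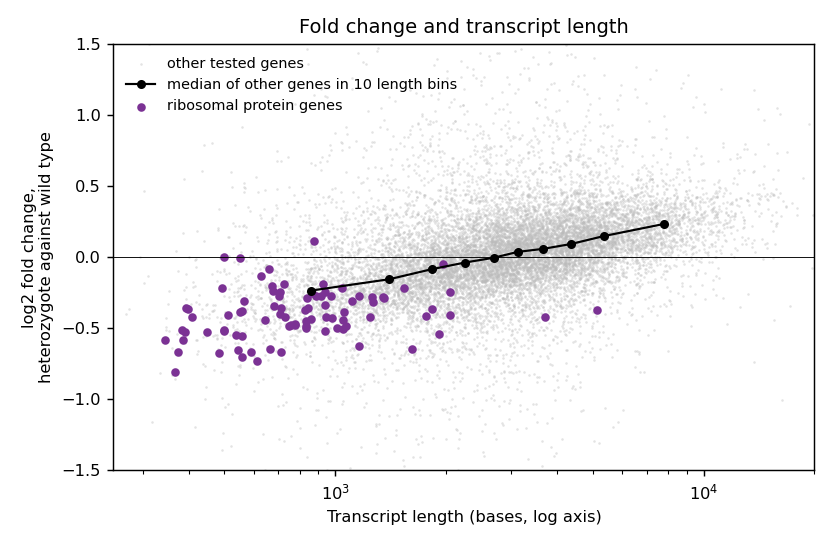
Log2 fold change, libraries labelled heterozygote against wild type (y axis), against transcript length in bases (x axis, log scale) for tested genes, with axes limited to the dense range. Black points are the medians of other genes in 10 bins of length, from -0.24 to 0.23, and 68 of the 69 ribosomal protein genes in the shortest bin lie below 0.

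The same was seen library by library. A slope of each library on length was taken over the genes that are not members, as the change of a gene's deviation per doubling of length. It was -0.20, -0.03, 0.06 and -0.10 in wild-type libraries 1 to 4 and 0.03, 0.05, 0.04 and 0.14 in libraries 5 to 8. The 3 libraries with a negative slope were the 3 with the largest ribosomal protein share, and library 8, with the steepest positive slope, had the smallest. Wild-type library 3 had a slope inside the range of the libraries labelled heterozygote and a share inside their range. The share of Rn45s, the ribosomal RNA precursor, did not follow this order fully, at 4.28% in wild-type library 1, 1.598% to 2.47% in the other wild-type libraries and 1.97% to 2.91% in libraries 5 to 8.

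**Figure D4:**
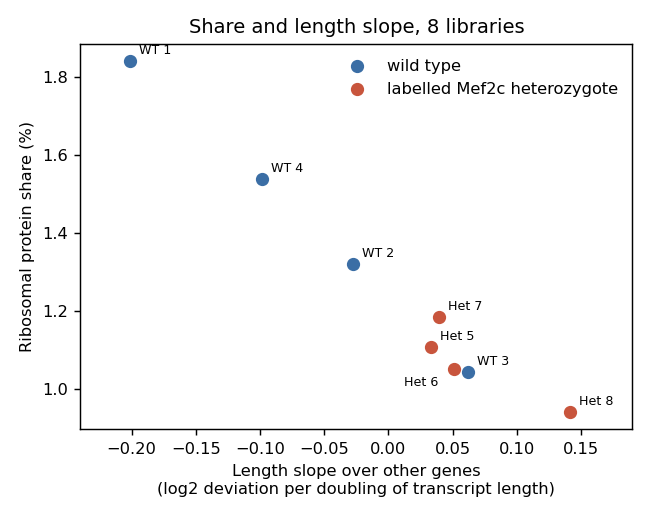
Ribosomal protein share of normalized counts (percent, y axis) against the slope on transcript length over all other genes (x axis) in the 8 libraries. The share is highest, at 1.84%, in wild-type library 1, which has the lowest slope, and lowest, at 0.943%, in library 8, which has the highest.

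With a smooth trend on transcript length taken out of each library, the members' median moved towards 0. Then 75 of 86 members were lower, against 52.8% of all genes, and the median log2 fold change was -0.19 against -0.01 over all genes. At an unadjusted limma-trend p under 0.05, 27 members were lower, against 6.73% of all genes, and none was higher. The genotypes did not overlap in 12 members, against 4.05% of all genes, among them Rpl11, Rpl22, Rpl38, Rplp2, Rps13, Rps15a and Rps24. None passed an adjusted p of 0.05, and the smallest limma-trend adjusted p was 0.159, that of Rps15a. The log2 fold change of Rps24 was then -0.55, of Rps15a -0.51 and of Rpl38 -0.48. The transcripts of Rps15a and Rps20 are listed with lengths of 5130 and 3706 bases, far above the other members, so their corrected values rest on those lengths.

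**Figure D5:**
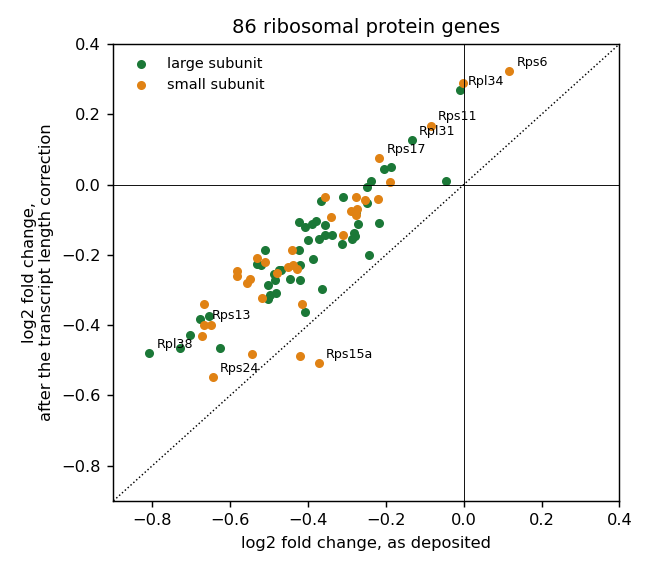
Log2 fold change of 86 ribosomal protein genes after the transcript length correction (y axis) against the value as deposited (x axis), by subunit, with the dotted line marking equal values. Most points lie above the dotted line, Rps15a and Rps20 lie below it, and 75 of the 86 stay below 0 after the correction.

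The number of members called changed with single libraries. Without wild-type library 3, 15 members passed a limma-trend adjusted p of 0.05, all lower, against 0.854% of all genes. They were Rpl11, Rpl13a, Rpl27a, Rpl36a, Rpl41, Rplp2, Rps12, Rps14, Rps15, Rps15a, Rps18, Rps23, Rps24, Rps3 and Rps3a1. Genotypes then did not overlap in 61 members, against 10.7% of genes. Without wild-type library 1, 27 members were lower at an unadjusted p under 0.05, against 5.39% of genes, and the median log2 fold change was -0.27. Without wild-type libraries 1 and 4, the shallowest, also tried after the data were seen, 5 members were, against 2.56% of genes. The median was then -0.13, with 86 of 87 members still below 0. These 2 libraries also had the largest ribosomal protein shares, 1.84% and 1.54%, so leaving them out shrinks the difference in any case. Only 2 wild-type libraries were then left against 4. A covariate made from the leading component of the residuals was an addition made after the data were seen. With it, 21 members passed the adjusted threshold, all lower, against 1.8% of genes. That covariate came from the residuals of the same fit, so it left the fold changes unchanged and took spread out of the test. Lower calls over all genes rose from 11 to 268 with it, so the 21 are no separate support.

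Other genes of the pathway were read from the same fit, and none passed the adjusted threshold in any of these lists. Over all tested genes, 7.34% were lower and 6.72% higher at an unadjusted p under 0.05. Elongation factors and other TOP messages had a median log2 difference of -0.22, and 15 of 18 were lower and 9 lower at an unadjusted p under 0.05. Eef1b2, the exchange factor of eEF1A, had -0.50 (limma-trend adjusted p 0.226), Eif3k -0.41 and Btf3 -0.29. Initiation factors had a median of -0.09, with 2 of 27 lower (Eif2b4 at -0.38 and Eif3i at -0.40) and 1 higher (Eif4g3 at 0.30) at an unadjusted p under 0.05. Those counts were near or below the shares of all tested genes. Factors of ribosomal RNA synthesis and ribosome assembly had a median of -0.02, with 4 of 40 lower and none higher at an unadjusted p under 0.05. Sbds, which clears the way for subunit joining, had -0.25 (limma-trend adjusted p 0.319), and Taf1d and Taf1a, subunits of the RNA polymerase I factor SL1, had -0.49 and -0.37. The mTORC1 pathway list had a median of 0.06, with 2 of 31 lower and 4 higher at that level. Pdk1, taken in by the list, is a pyruvate dehydrogenase kinase and no member of that pathway. It had the smallest p of the list, with a log2 fold change of 0.34 (limma-trend adjusted p 0.259). Sesn3, Deptor and Akt2 were the others that were higher, at 0.62, 0.25 and 0.24. The lower genes were Rheb, the GTPase that activates mTORC1, and Lamtor4, a subunit of its lysosomal anchor, at -0.27 and -0.53 (limma-trend adjusted p 0.266 for both). The median transcript had 1891 bases in the TOP list, 2427 in the initiation factors, 2649.5 in the assembly factors and 3047 in the mTORC1 list. Sesn3, Deptor, Pdk1 and Akt2, which were higher, had 9125, 8547, 5185 and 3022.5 bases. Rheb and Lamtor4, which were lower, had 1784 and 877. The part of transcript length in these lists was not tested.

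Other families of short housekeeping transcripts gave a scale for the difference. Mitochondrial ribosomal proteins, the separate set that serves the organelle's own ribosomes, had a median log2 difference of -0.22. Of these 78 genes, 72 were lower, against 47.7% of all tested genes, and 18 at an unadjusted p under 0.05, against 7.34%. Mrpl12 had -0.62, Mrpl11 -0.60 and Mrps24 -0.39. Genes with symbols of respiratory complex I subunits had a median of -0.36, with 38 of 40 lower and 28 at that level. Ndufc2 had -0.57, Ndufa4 -0.43 and Ndufb10 -0.37, none past the adjusted threshold. Ndufa4 was taken in by its symbol but is a subunit of complex IV. Ndufs5-ps, named as a pseudogene, is also among the 40 and among the 28. After the length correction these medians were -0.10 and -0.15. The median transcript had 1255 bases in the mitochondrial set and 866 in the complex I set. No test compared the lists.

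Markers of cell types also moved between libraries. The 14 oligodendrocyte markers summed to 226847 to 292567 normalized counts in wild type, against 123150 to 157894 in the libraries labelled heterozygote, with no overlap, and 4 of them fell at a limma-trend adjusted p under 0.05. For neutrophils, 7 of 12 markers were in the table, summing to 171.6 to 2737 and 828.6 to 6606. All 7 were higher on average, 6 at an unadjusted p under 0.05, against 6.72% of all tested genes, with a median log2 fold change of 2.104. All 12 osteoblast and osteocyte markers were also higher on average, 4 at that level, with a median of 0.64 and sums of 46421 to 60222 and 50773 to 70386. None of the neutrophil, osteoblast and osteocyte markers passed the adjusted threshold. For erythroid cells, 7 of 9 were in the table, summing to 10171 to 34445 and 8543 to 29310, highest in wild-type library 1, as the ribosomal proteins were. The oligodendrocyte, macrophage and fibroblast sums were also highest there, at 292567, 6028 and 44216. Sums of neutrophil, osteoblast and osteocyte, Schwann cell, neuron, B cell and proliferation markers were not. Library 7 had 29310 of the erythroid sum and a ribosomal protein share of 1.19%. The markers Camp, Elane, Mpo, Retnlg and Cxcr2 of neutrophils and Ahsp and Epb42 of erythroid cells are not in the table, and no marker in it was at 0 in any library. The part of these cell types and of RNA quality in the ribosomal protein difference was not tested.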

How the data were processed

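The deposited table gives, per gene, 8 columns of normalized signal and the authors' own comparison. The submitters' processing notes name STAR, Partek, DESeq2 and the build mm10. Their roles, the counting, its strand setting and the annotation are not given in the sources used here. Per the labels' protocols, libraries were poly(A)-selected from total RNA with a directional kit. The signal values that the authors deposited behave as read counts scaled by 1 factor per library: 88.5% to 91.7% of low values are whole multiples of 1 step per column, against 7.72% to 12.7% by chance. Estimated depths come from those steps. The p-value and FDR columns, the ratio, its log2 and a signed fold change (a score, not used) are the authors' deposited values, per the file headers. All per-library columns were used, leaving 0 unused.

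The design planned a count test for counts. Because the values are normalized, limma-trend (limma 3.58.1, R 4.3.3) was fitted on log2(value + 1) over all 14870 genes with at least 10 in at least 4 libraries, p-values being adjusted by Benjamini-Hochberg and called under 0.05. Fold changes are on that scale, which understates changes of low genes. On simulated data with 200 of 14870 genes changed for this comparison, 92.5% of 4-fold and 69.9% of 2-fold changes were recovered, with 8 false calls. Length trends were loess fits (span 0.5) on log2 transcript length from GENCODE M21, which 97.653% of tested genes had. Promoter sequences are RefSeq GRCm38.p6. Paralog ratios used exact permutation tests (R 4.3.3), and summaries were made in Python 3.11.15.

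Named genes were chosen by role, as the 4 highest and 4 lowest fold changes, as members past the adjusted threshold, as paralog pairs, as the up to 3 smallest p in each pathway list, and as members that are not ribosomal proteins by name. Rpl8, Rpl17, Rps7, Rps13, Rps15, Rps15a, Rps20, Rps24, the members called without wild-type library 3, Sesn3, Deptor and Akt2 are named outside that rule, after their values were seen. The members and lists were chosen with earlier results of these data known. Each label group holds 1 library per mouse, and p-values measure the spread between these mice. One gene of the role list is not reported here.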

Additional observations from a re-analysis of the deposited data

Results flagged for a closer look

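Of 76 groups of 4 libraries checked for a sample far from the others, 4 stood out, against 3.8 that chance gives at about 1 in 20. Each is given as the gap to the nearest library divided by the range of the group, and all lie in the libraries labelled heterozygote. For the length slope over other genes it was 0.835, with library 8 at 0.14 and the other 3 at 0.03 to 0.05. Rpl41 had 0.854, with library 8 at 3694 normalized counts and the others at 5094 to 5332. Rplp2 had 0.89, with library 8 at 1325 and the others at 1601 to 1635. Rps4x had 0.879, with library 7 at 4147 and the others at 3277 to 3383. Library 8 also had the smallest ribosomal protein share, 0.943%.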

How the results depend on the processing

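The members' median log2 fold change was below 0 under all 22 alternatives, but some of these could not move it. It stayed at -0.41 without a filter and with a filter of at least 100 in 4 libraries, which both keep all 87 members. The same held with low Xist or the added residual component as a covariate, because neither differs on average between genotypes. Fold changes of single members were also fixed in these settings. Over the named genes and alternatives, 606 values kept direction and side of the threshold, 10 passed it and 22 changed sign. Settings marked as added were chosen after seeing the data. Members lower at an adjusted p under 0.05 numbered 0 to 15 with one library left out (15 without wild-type library 3). They numbered 21 with the added residual component, which left the fold changes unchanged. At an unadjusted p under 0.05 they numbered 27 after the length correction (6.73% of all genes), 28 with that trend fitted on other genes (6.87%), 32 with the longest transcripts (added, 7.09%), 29 without the 2 libraries low in Xist (6.37%) and 5 without the 2 shallowest (added, 2.56%). With one left out they numbered 20 (without library 8, 4.09% of all genes) to 73 (without wild-type library 3, 11.4%). Non-overlapping lower members numbered 3 with equal totals, or 3.45% against 3.77% of all genes, and 8 without the libraries low in Xist, or 9.20% against 9.39%, both below the share of all genes. They numbered 12, 11 and 11 under the 3 length corrections (4.05%, 4.09% and 4.08% of all genes) and 5 to 61 with one left out, the 61 without wild-type library 3 (10.7%). The low end of 5 members, or 5.75%, was close to the share of all genes. That share was 4.65% on dropping library 8, 5.11% on dropping wild-type library 1 and 5.03% on dropping its replicate 4. Dropping library 7 gave 18 members (20.7%), against 5.44%. Without the 2 shallowest libraries the median was -0.13 for all members and -0.13 for the large subunit, and the share differed by -0.14 (log2). Signs changed near 0. Rpl34 was at 0.0034 with equal totals, at 0.27, 0.26 and 0.17 under the length corrections, and from -0.50 to 0.29 with one library left out. Rpl7l1 was at 0.0088 and 0.0082 under the first 2 length corrections, 0.036 without low Xist and -0.087 to 0.0091 with one left out. Rps27l was at 0.011 with equal totals, 0.29, 0.28 and 0.29 under the length corrections, 0.034 without low Xist and -0.080 to 0.082 with one left out. Rps6 was at -0.045 without the shallowest. The ratio of Rpl22l1 to Rpl22 differed by 0.25 and 0.24 under the first 2 length corrections, and ranged from -0.11 to 0.094 with one left out. That of Rps4l to Rps4x was at -0.13 without low Xist, -0.12 without the shallowest and -0.072 to 0.10 with one left out. The causes were not tested. No paired analysis was possible because the replicate numbers of the 2 groups do not overlap (1 to 4 and 5 to 8). The lowest member value was 53.5 normalized counts. The difference was smaller without the 2 shallowest libraries, as given above. Those 2 also had the largest ribosomal protein shares, so leaving them out cannot tell depth from share. The part of depth was not tested.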

Other observations

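The Rps6k genes, kinases that phosphorylate Rps6 and other targets, are no ribosomal proteins. Their median log2 fold change was 0.02, with 4 of 10 lower and none past the adjusted threshold of limma-trend. Their transcripts are long, with a median of 4288 bases, and after the length correction the median was -0.06, with 7 of 10 lower. No test compared them with the ribosomal proteins. Rps6ka5 had 371.4 ± 15.6 normalized counts in wild type, against 302.6 ± 17.7 in the libraries labelled heterozygote (n = 4 each, SD), a log2 fold change of -0.30 (limma-trend adjusted p 0.334). Rps6ka3 had a log2 fold change of 0.38 (limma-trend adjusted p 0.373) and Rps6ka2 0.14 (0.565). Rps6kb1, the S6 kinase of the mTORC1 pathway, had 768.9 ± 135.4 and 785.4 ± 113.1, a log2 fold change of 0.04 (limma-trend adjusted p 0.923).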
